A study of Mus musculus with 18 samples.

Results

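The nuclear genes of the mitochondrial respiratory chain and of ATP synthase were followed while mouse embryonic fibroblasts (MEFs) were reprogrammed. They were taken by name as every gene whose symbol starts with Nduf, Uqcr, Atp5 or Cox followed by a digit, together with *Sdha*, *Sdhb*, *Sdhc*, *Sdhd*, *Cyc1* and *Cycs*. Of 9866 genes listed in at least one of the expression tables, 89 met this rule, of which 88 were listed in both tables and *Cox6b2* in the knockdown table only. They comprised 35 complex I genes, 5 complex I assembly factors, 4 complex II genes, 9 complex III genes, 13 complex IV genes, 5 complex IV assembly factors, 17 ATP synthase genes and the cytochrome c gene *Cycs*. A further 17 protein-coding genes of the annotation that meet the name rule, among them *Cox4i2*, *Cox6a2*, *Cox7a1*, *Cox8b* and *Ndufa4l2*, were in neither table and were not analysed here.

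The cells were primary MEFs that carry a doxycycline-inducible cassette of the Yamanaka factors OCT4, SOX2, KLF4 and c-MYC (OSKM) in the collagen locus and the reverse transactivator M2rtTA. There were 18 libraries in 9 groups of 2. In the knockdown dataset, cells were transduced with a lentiviral shRNA and collected after 12 days of doxycycline and LIF: a scrambled shRNA (shSCR), either of 2 shRNAs against the cleavage and polyadenylation endonuclease CPSF3 (shCPSF3#1 and shCPSF3#2), or either of 2 shRNAs against the RNA-binding protein hnRNP UL1 (shUL1#1 and shUL1#2). In the overexpression dataset, cells were transduced with a retroviral vector that was empty (Empty) or encoded T7-tagged TIA1 (T7-TIA1), an RNA-binding splicing and translation regulator, and were likewise collected at day 12. Each dataset had its own non-infected cells (NI) at day 0. Infected cells were sorted for GFP and grown on irradiated MEF feeders, so RNA of feeder fibroblasts could remain in day 12 libraries.

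Oxidative phosphorylation passes electrons from NADH (complex I) and succinate (complex II) through complex III, cytochrome c and complex IV to oxygen, and the proton gradient this builds drives ATP synthase. Most subunits are encoded in the nucleus and are built, with dedicated assembly factors, around a core made from mitochondrial DNA. Fibroblasts rely strongly on this pathway, and the shift towards glycolysis is a known metabolic feature of cells on the way to pluripotency. Several complex IV and ATP synthase subunits exist as tissue isoforms from separate genes, such as the testis form *Cox6b2* and the *Atp5g* genes, which encode the same mature c subunit.

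The libraries held 98882289 to 109047542 reads on listed genes. Levels are given as scaled cpm, that is, the authors' cpm values after scaling between libraries, and differences as log2 fold changes of scaled cpm + 1, which understate the change of low genes. A gene was called where limma, fitted on all listed genes of a dataset, gave a Benjamini-Hochberg adjusted p under 0.05. The labels do not say that the libraries of a group came from separate cultures, so the p-values measure only the spread between these libraries. *Cpsf3* was at 86.7 and 118 scaled cpm in shSCR and at 38.6 to 77.1 in the 4 libraries with its shRNAs, *Hnrnpul1* at 156 and 185 in shSCR and at 38.7 to 85.8 with its shRNAs, and *Tia1* at 85.6 and 77.0 in Empty and 613 and 469 in T7-TIA1. Summed levels of the listed fibroblast markers (11 of 12 in the knockdown table, *Col1a1* and *Col3a1* among the highest) were 11716 to 15138 in NI, 5608 to 6694 in shSCR, 15374 to 25061 with the CPSF3 shRNAs and 13076 to 29664 with the UL1 shRNAs. In the overexpression dataset (10 of 12 markers listed) they were 12648 and 38145 in the NI libraries, which thus differed from each other, 4928 to 5832 in Empty and 3122 to 3811 in T7-TIA1. Of 15 epithelial or pluripotency markers only *Krt8* and *Krt18* were listed, in the knockdown table, with sums of 15.96 to 20.4 in NI, 298 to 539 in shSCR and 31.7 to 221 with the CPSF3 or UL1 shRNAs. Macrophage markers (3 of 6 listed, *Lyz2* the highest) summed to 9.57 to 10.6 in NI, 171 to 300.4 in shSCR, 429 to 1814 with the CPSF3 shRNAs and 259 to 1000.2 with the UL1 shRNAs. These sums moved with the groups, and their part in the results that follow was not tested. In bulk RNA, fewer cells of a type and less RNA per cell cannot be told apart.

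The summed level of the 89 genes was 9394 ± 119 scaled cpm in NI, 9162 ± 1492 in shSCR, 7706 ± 173 in shCPSF3#1, 8491 ± 1143 in shCPSF3#2, 8125 ± 975 in shUL1#1 and 8416 ± 581 in shUL1#2 (mean ± SD, n = 2). Among libraries numbered 1, shSCR summed to 8106 and the knockdown libraries to 7436 to 8005. Among those numbered 2, shSCR summed to 10217 and the knockdown libraries to 7829 to 9300. By the sum, all knockdown libraries thus lay below shSCR within each number, a description without a test. In the overexpression dataset the 88 listed genes summed to 9196 ± 771 in NI, 9943 ± 136 in Empty and 10049 ± 45.6 in T7-TIA1. The median deviation of the genes from their own mean was 0.13 and 0.16 (log2) in the NI pair of the knockdown dataset, -0.09 and 0.19 in shSCR, and between -0.16 and 0.09 in the 8 libraries with an shRNA against CPSF3 or UL1. By this measure the ordering of the sums did not hold among libraries numbered 1. The highest of these at day 12, at -0.07, was a knockdown library, above shSCR library 1. It was 0.01 and -0.09 in the NI libraries of the overexpression dataset, 0.03 and 0.00 in Empty and 0.05 and 0.03 in T7-TIA1. The pooled SD between libraries of a group was 0.09, and the shSCR libraries were farther apart than any other pair. The values by group, 9 pairs of points, are drawn in the plot of the median deviation.

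**Figure D1:**
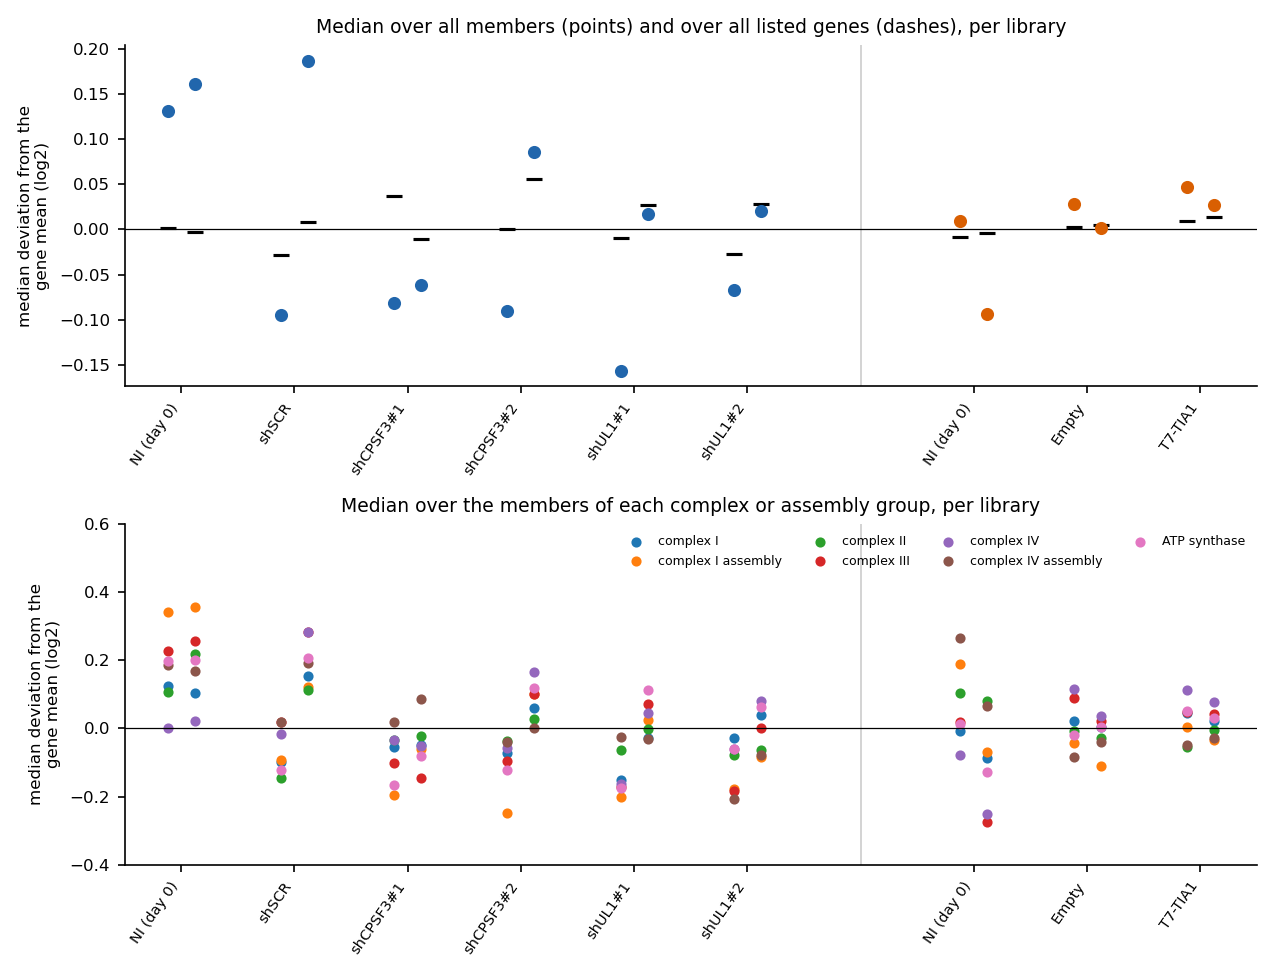
Median deviation of the respiratory chain and ATP synthase genes from their mean over the libraries of a dataset (y axis, log2 scaled cpm + 1), for each library of the 9 groups (x axis). Each point is 1 library; the upper panel has the median over all of these genes, in blue for the knockdown and orange for the overexpression dataset, with dashes for the median over all listed genes, and the lower panel has the median of each complex or assembly group in its own colour. The NI points of the knockdown dataset sit at 0.13 and 0.16, and the shSCR libraries at -0.09 and 0.19 are farther apart than any other pair.

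The first comparison, shSCR at day 12 against NI at day 0, addressed the course of reprogramming. The groups also differed in lentiviral infection, GFP sorting, feeder cells and 12 days of culture, whose parts in the differences cannot be told apart. Complex I subunits moved in both directions: *Ndufv3*, *Ndufa6*, *Ndufa7* and *Ndufa13* rose, whereas *Ndufa5*, *Ndufa8*, *Ndufa12*, *Ndufs1*, *Ndufa3*, *Ndufa2* and *Ndufs5* fell. *Cycs* fell the most, followed by the complex I assembly factors *Ndufaf4* and *Ndufaf2*. The complex IV genes *Cox7a2l* and *Cox8a* rose, *Cox6b2* was higher, as its listing required, and no complex IV subunit fell. In total 9 of the 89 genes were called higher and 18 lower, 30.3% of them (8 and 18 of 88 without *Cox6b2*), where 44.5% of all 9435 genes tested were called (22.5% higher and 22.0% lower). The changes were small: 17.98% of the 89 genes differed by 0.5 or more on the log2 scale against 50.8% of all genes, and their median was -0.07 against 0.00 for all genes. With the libraries rescaled to equal sums, which moved the median of all genes to 0.13, 10 rose and 8 fell, and with median-of-ratios scaling 9 rose and 18 fell. The median was -0.10 without NI library 1, -0.05 without NI library 2, 0.058 without shSCR library 1 and -0.21 without shSCR library 2. Without any one library no more of these genes were called, and fewer of all genes.

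The same step in the overexpression dataset, Empty at day 12 against NI at day 0, called 12 genes higher and 4 lower of 88, 18.2% against a background of 46.5% of all 9472 genes (22.8% higher and 23.6% lower). *Ndufv3*, *Ndufa7*, *Ndufa6*, *Ndufs6* and *Ndufb5* of complex I, *Uqcr10* and *Uqcr11* of complex III, *Cox7c*, *Cox6c* and *Cox8a* of complex IV and *Atp5g2* and *Atp5a1* of ATP synthase rose. *Cycs*, *Cox18*, *Ndufa3* and *Ndufa5* fell. The median of the 88 genes was 0.07 against 0.01 for all genes, and 9.09% differed by 0.5 or more against 44.4% of all genes. The median of the 88 was 0.14 without NI library 1, 0.01 without NI library 2 and 0.04 without Empty library 1. With equal sums the median of all genes moved to 0.19, and 34 of the genes were higher and none lower, 38.6% against 49.6% of all genes (33.2% higher and 16.4% lower). With median-of-ratios scaling 12 were higher and 4 lower. More of these genes, and more of all genes, were called without either NI library. Fewer of these genes, and fewer of all genes, were called without either Empty library. Blocked by replicate number, the calls of *Atp5a1* (adjusted p = 0.0524) and *Ndufa5* (adjusted p = 0.0566) were lost.

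The datasets have separate NI cells, so the day 12 controls share no library. *Cox8a*, *Ndufa6*, *Ndufa7* and *Ndufv3* were higher in both shSCR and Empty, *Cycs*, *Ndufa3* and *Ndufa5* were lower in both, and 0 genes were called in opposite directions. A further 4 genes higher and 15 lower in shSCR were not called in Empty. Conversely, 8 genes higher and 1 lower in Empty were not called in shSCR. The same overlap over all genes was not taken, so these counts are not read as a result about the members. With equal sums, none of *Cycs*, *Ndufa3* and *Ndufa5* was called lower in Empty (adjusted p = 0.0514 for *Cycs* and 0.0672 for *Ndufa3*). No decrease was thus called in both controls with that scaling. The plot of day 12 against day 0 shows both sets of values by complex.

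**Figure D2:**
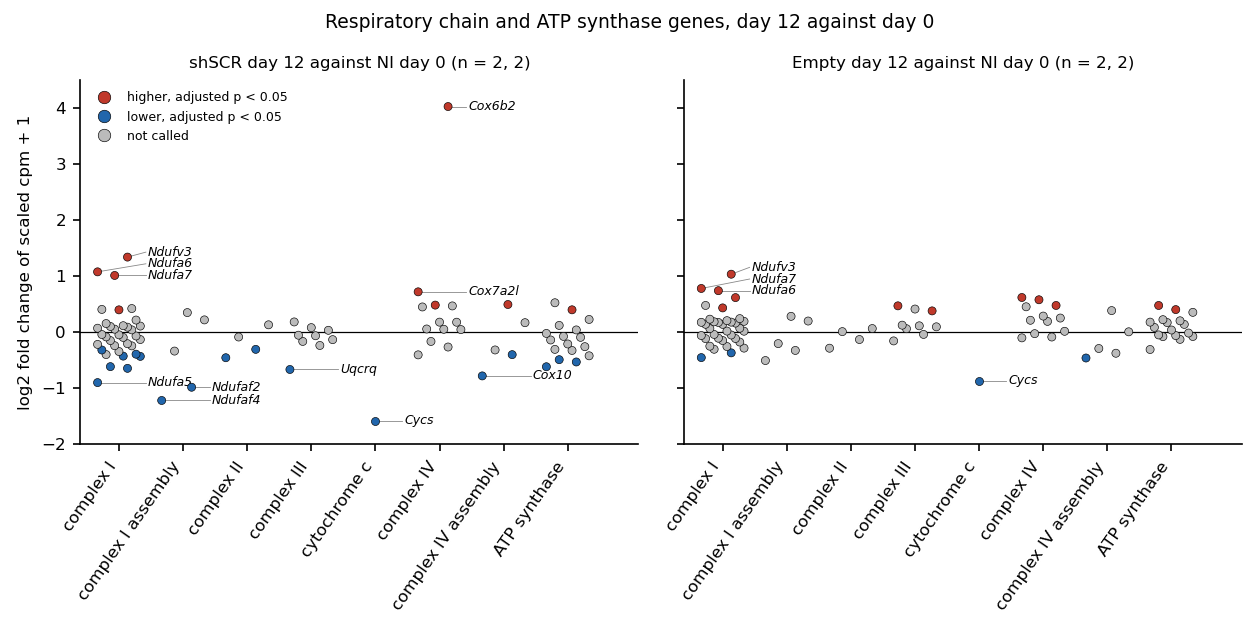
Log2 fold change of scaled cpm + 1 (y axis) of each respiratory chain and ATP synthase gene by complex (x axis), shSCR against NI on the left and Empty against NI on the right (n = 2 libraries a group). Red and blue points were called higher and lower; *Cox6b2* at 4.03 and *Cycs* at -1.58 on the left lie farthest from 0, and most grey points lie near it.

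The CPSF3 shRNAs were next compared with shSCR at day 12. The study reports that knockdown of *Cpsf3* or *Hnrnpul1* lowered reprogramming efficiency. An effect on a gene and a difference in reprogramming can therefore not be told apart here. *Cox19* and *Ndufa1* were higher and *Atp5g2*, *Ndufa6*, *Ndufa7*, *Cox7a2l*, *Uqcrc2* and *Ndufv3* were lower, 8.99% of the 89 genes against 26.1% of all genes (16.7% higher and 9.35% lower). The median was -0.09 against 0.03 for all genes, and 3.37% of the genes differed by 0.5 or more against 35.8% of all genes. With equal sums 0 were higher and 7 lower, and with median-of-ratios scaling 0 were higher and 8 lower. The calls depended on single libraries and fell most without shSCR library 2. Calls among all genes also fell most without that library, so this is not a result about these genes alone. The median was 0.045 without shSCR library 2, so its direction turned. That fit set a control numbered 1 against knockdown libraries of both numbers, and same-numbered day 12 libraries deviated together. A dependence on this library and one on the number cannot be told apart. A fit of the compared groups alone called 0 of these genes and 3.65% of all genes. With the replicate number as a block, since same-numbered day 12 libraries deviated together, 8 were higher and 18 lower, 29.2% against 49.8% of all genes (27.2% higher and 22.6% lower).

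Against the same shSCR libraries, the UL1 shRNAs left 0 genes higher and 2 lower, *Ndufa6* and *Ndufv3*, 2.25% against 10.5% of all genes (7.31% higher and 3.15% lower). The median was -0.09 against 0.00 for all genes. With equal sums the split was again 0 higher and 2 lower, and with median-of-ratios scaling 0 higher and 4 lower. Without any one library no more of these genes were called, and fewer of all genes. The median was 0.040 without shSCR library 2, a fit that again set a control numbered 1 against knockdown libraries of both numbers. With the replicate number as a block 1 was higher and 9 were lower, 11.2% against 29.3% of all genes (16.5% higher and 12.8% lower). Because both knockdowns were set against one pair of control libraries, their values are given side by side below and their likeness is not a result.

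Set directly against each other, the CPSF3 and UL1 knockdowns gave 0 calls by limma among the 89 genes, with 10 at an unadjusted p under 0.05, where 0.0424% of all genes were called (0.0106% higher and 0.0318% lower). The values at either end were those of *Atp5d* at 0.36, adjusted p = 0.280, and of *Atp5g2* at -0.31, adjusted p = 0.468. TIA1 overexpression against Empty gave 0 calls by limma among the 88 genes and 0 at an unadjusted p under 0.05, where 0.0% of all genes were called and 393 of them had an unadjusted p under 0.05. The values at either end were those of *Cycs* at 0.26, adjusted p = 0.999, and of *Cox7a2l* at -0.20, adjusted p = 0.999. In either comparison, 0% of these genes differed by 0.5 or more, which 6.42% of all genes did between the knockdowns and 4.43% with T7-TIA1.

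**Figure D3:**
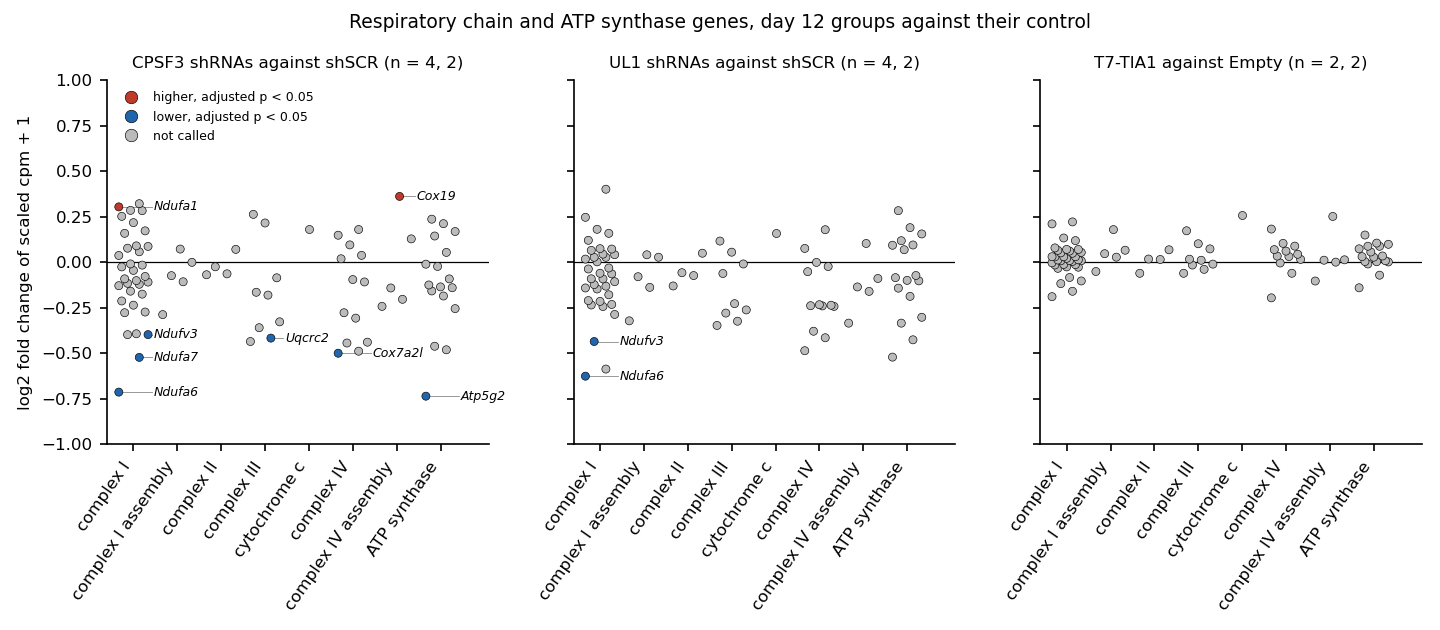
Log2 fold change of scaled cpm + 1 (y axis) of each respiratory chain and ATP synthase gene by complex (x axis) for the CPSF3 shRNAs against shSCR, the UL1 shRNAs against shSCR (n = 4 and 2 libraries each) and T7-TIA1 against Empty (n = 2 and 2). Red and blue points were called higher and lower; 8 genes were called with the CPSF3 shRNAs, 2 with the UL1 shRNAs and 0 with T7-TIA1, where all points stay between -0.20 and 0.26.

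Cytochrome c, the soluble carrier between complexes III and IV that also starts the apoptotic caspase cascade, showed the largest decrease of the 89 genes. *Cycs* was at 165 and 151 in NI, 46.5 and 58.7 in shSCR, 66.2 and 54.3 in shCPSF3#1, 54.2 and 63.9 in shCPSF3#2, 54.5 and 61.5 in shUL1#1 and 60.00 and 58.6 in shUL1#2 scaled cpm. Every day 12 library lay below both NI libraries, and the knockdown libraries and shSCR overlapped. The difference of shSCR from NI was -1.58 ± 0.16 (SE), adjusted p = 0.000195, and it was called whichever library was left out. *Cycs* was at 155 and 94.9 in NI, 63.2 and 69.4 in Empty and 81.5 and 77.2 in T7-TIA1 in the overexpression dataset, where both Empty libraries lay below both NI libraries although NI library 2 was close to the day 12 range. Its difference there was -0.86 ± 0.23 (SE), adjusted p = 0.0288, from -0.51 without NI library 1 to -1.22 without NI library 2, and the call was lost without Empty library 1 (adjusted p = 0.152) or Empty library 2 (adjusted p = 0.103).

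Among the 5 complex I assembly factors, which help to build the enzyme and are not part of it, 2 fell in shSCR against NI and none rose, 40.0% against the 44.5% of all genes. *Ndufaf4* was at 55.4 and 45.6 in NI and 17.4 and 25.5 in shSCR scaled cpm, -1.22 ± 0.23 (SE), adjusted p = 0.00347, and was called whichever library was left out. With the shRNAs against CPSF3 or UL1 it stayed at 18.7 to 25.99, overlapping shSCR and below both NI libraries. *Ndufaf2* was at 28.2 and 27.5 in NI and 11.3 and 16.4 in shSCR, -0.98 ± 0.23 (SE), adjusted p = 0.00987, and its call was lost without NI library 1 (adjusted p = 0.0541) or shSCR library 1 (adjusted p = 0.0605); it overlaps *Smim15* and a long non-coding RNA gene on the opposite strand. Neither was called in the overexpression dataset: *Ndufaf4* was at 52.3 and 31.97 in NI, 27.7 and 29.5 in Empty and 33.8 and 31.2 in T7-TIA1, with NI library 2 near the day 12 libraries, and *Ndufaf2* was at 26.6 and 18.2 in NI, 17.2 and 17.7 in Empty and 18.1 and 18.4 in T7-TIA1. *Ndufaf1*, *Ndufaf5* and *Ndufaf7* were called in none of the 6 comparisons, and with the replicate number as a block *Ndufaf7* was called lower with the CPSF3 (-0.29, adjusted p = 0.0296) and UL1 shRNAs (-0.32, adjusted p = 0.0322).

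Complex I, which oxidises NADH, held 3 of the 4 subunits that rose in both day 12 controls, and 35 of the 89 genes. In shSCR against NI 4 of its genes were higher and 7 lower, 31.4% against 44.5% of all genes. *Ndufa6*, an LYR-motif accessory subunit of the peripheral arm, was at 35.6 and 32.9 in NI, 70.2 and 76.5 in shSCR, 43.8 and 41.5 in shCPSF3#1, 43.04 and 49.4 in shCPSF3#2, 40.7 and 49.2 in shUL1#1 and 46.6 and 53.00 in shUL1#2 scaled cpm. Both shSCR libraries lay above every other library, and all 8 knockdown libraries lay between NI and shSCR. Its differences were 1.08 ± 0.13 (SE), adjusted p = 0.000549 for shSCR against NI, -0.71 ± 0.12 (SE), adjusted p = 0.00583 for CPSF3 against shSCR, and -0.63 ± 0.12 (SE), adjusted p = 0.0177 for UL1 against shSCR. The CPSF3 call was lost without shSCR library 2 (adjusted p = 0.0535), and the UL1 call without shSCR library 1, shSCR library 2, shUL1#1 library 1 or shUL1#2 library 1 (adjusted p of 0.0546 to 0.118). *Ndufa6* was at 35.5 and 35.4 in NI, 60.7 and 59.3 in Empty and 49.1 and 56.2 in T7-TIA1 in the overexpression dataset, with both Empty libraries above both NI libraries and T7-TIA1 between them. That difference was 0.74 ± 0.11 (SE), adjusted p = 0.00473, lost without Empty library 1 (adjusted p = 0.0516).

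*Ndufv3*, a subunit of the NADH-binding module, was at 24.7 and 26.8 in NI, 61.3 and 72.7 in shSCR, 48.2 and 45.5 in shCPSF3#1, 53.2 and 55.5 in shCPSF3#2, 53.4 and 51.8 in shUL1#1 and 44.9 and 46.7 in shUL1#2 scaled cpm. It was higher in every day 12 library than in NI, and the knockdown libraries all lay below shSCR. Its differences were 1.34 ± 0.11 (SE), adjusted p = 9.94e-05 for shSCR against NI, -0.40 ± 0.10 (SE), adjusted p = 0.0219 for CPSF3 against shSCR, and -0.44 ± 0.10 (SE), adjusted p = 0.0302 for UL1 against shSCR, the last of which was lost when any one library of its 6 was left out (adjusted p of 0.0538 to 0.187). The overexpression dataset had it at 23.4 and 40.9 in NI, 68.9 and 60.6 in Empty and 55.4 and 60.3 in T7-TIA1, 1.04 ± 0.26 (SE), adjusted p = 0.0229 for Empty against NI (0.65 without NI library 1), lost without Empty library 1 (adjusted p = 0.136) or Empty library 2 (adjusted p = 0.0853). The NI libraries there differed from each other by more than the Empty libraries did, and both lay below all day 12 libraries.

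*Ndufa7*, another accessory subunit of the peripheral arm, was at 58.6 and 60.96 in NI, 106 and 140.3 in shSCR, 84.4 and 77.3 in shCPSF3#1, 79.6 and 97.97 in shCPSF3#2, 68.6 and 85.6 in shUL1#1 and 79.4 and 91.3 in shUL1#2 scaled cpm. All 8 knockdown libraries lay above NI and below shSCR. Its differences were 1.01 ± 0.18 (SE), adjusted p = 0.00278 for shSCR against NI, and -0.52 ± 0.16 (SE), adjusted p = 0.0426 for CPSF3 against shSCR, and with 1 library left out the latter call held only without shSCR library 1 or shCPSF3#2 library 2, the difference being -0.32 without shSCR library 2. For UL1 against shSCR the difference was -0.59 ± 0.16 (SE), adjusted p = 0.0509, not past the threshold (adjusted p = 0.0113 when blocked by replicate number). The overexpression dataset had *Ndufa7* at 68.3 and 64.4 in NI, 122 and 108 in Empty and 108 and 106 in T7-TIA1, 0.78 ± 0.11 (SE), adjusted p = 0.00374 for Empty against NI, a call that held whichever library was left out.

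Of the complex I subunits that fell, *Ndufa5* of the peripheral arm, named after its values were seen, was at 36.1 and 40.6 in NI and 17.4 and 23.3 in shSCR scaled cpm and at 23.3 to 28.99 in the knockdown libraries. Both shSCR libraries lay below both NI libraries. Its difference was -0.90 ± 0.17 (SE), adjusted p = 0.00354 in the knockdown dataset and -0.37 ± 0.10 (SE), adjusted p = 0.0348 in the overexpression dataset, where it was at 35.6 and 33.1 in NI, 25.9 and 26.9 in Empty and 27.4 and 27.9 in T7-TIA1. *Ndufa3*, which overlaps *Tfpt* on the opposite strand, was at 50.3 and 53.5 in NI and 34.9 and 42.2 in shSCR in the knockdown dataset and at 56.7 and 59.2 in NI, 41.7 and 42.5 in Empty and 40.9 and 41.3 in T7-TIA1 in the overexpression dataset. The groups did not overlap in either, with differences of -0.42, adjusted p = 0.0180, and -0.45, adjusted p = 0.0144, the latter lost without Empty library 1 (adjusted p = 0.102) or Empty library 2 (adjusted p = 0.0802). The remaining complex I subunits that fell with shSCR, *Ndufa8*, *Ndufa12*, *Ndufs1*, *Ndufa2* and *Ndufs5*, ranged from -0.64 to -0.32. With equal sums 3 complex I subunits were called lower in shSCR and 0 in Empty, instead of 7 and 2. Of all genes, 16.3% and 16.4% were lower with that scaling. *Ndufa1*, which is needed to assemble the membrane arm, was at 29.4 and 34.4 in shSCR and 35.8 to 44.1 with the CPSF3 shRNAs, 0.30 ± 0.09 (SE), adjusted p = 0.0405. That call was lost when any one of the 6 libraries was left out (0.19 without shSCR library 1), with equal sums (adjusted p = 0.149) and with median-of-ratios scaling (adjusted p = 0.0547).

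**Figure D4:**
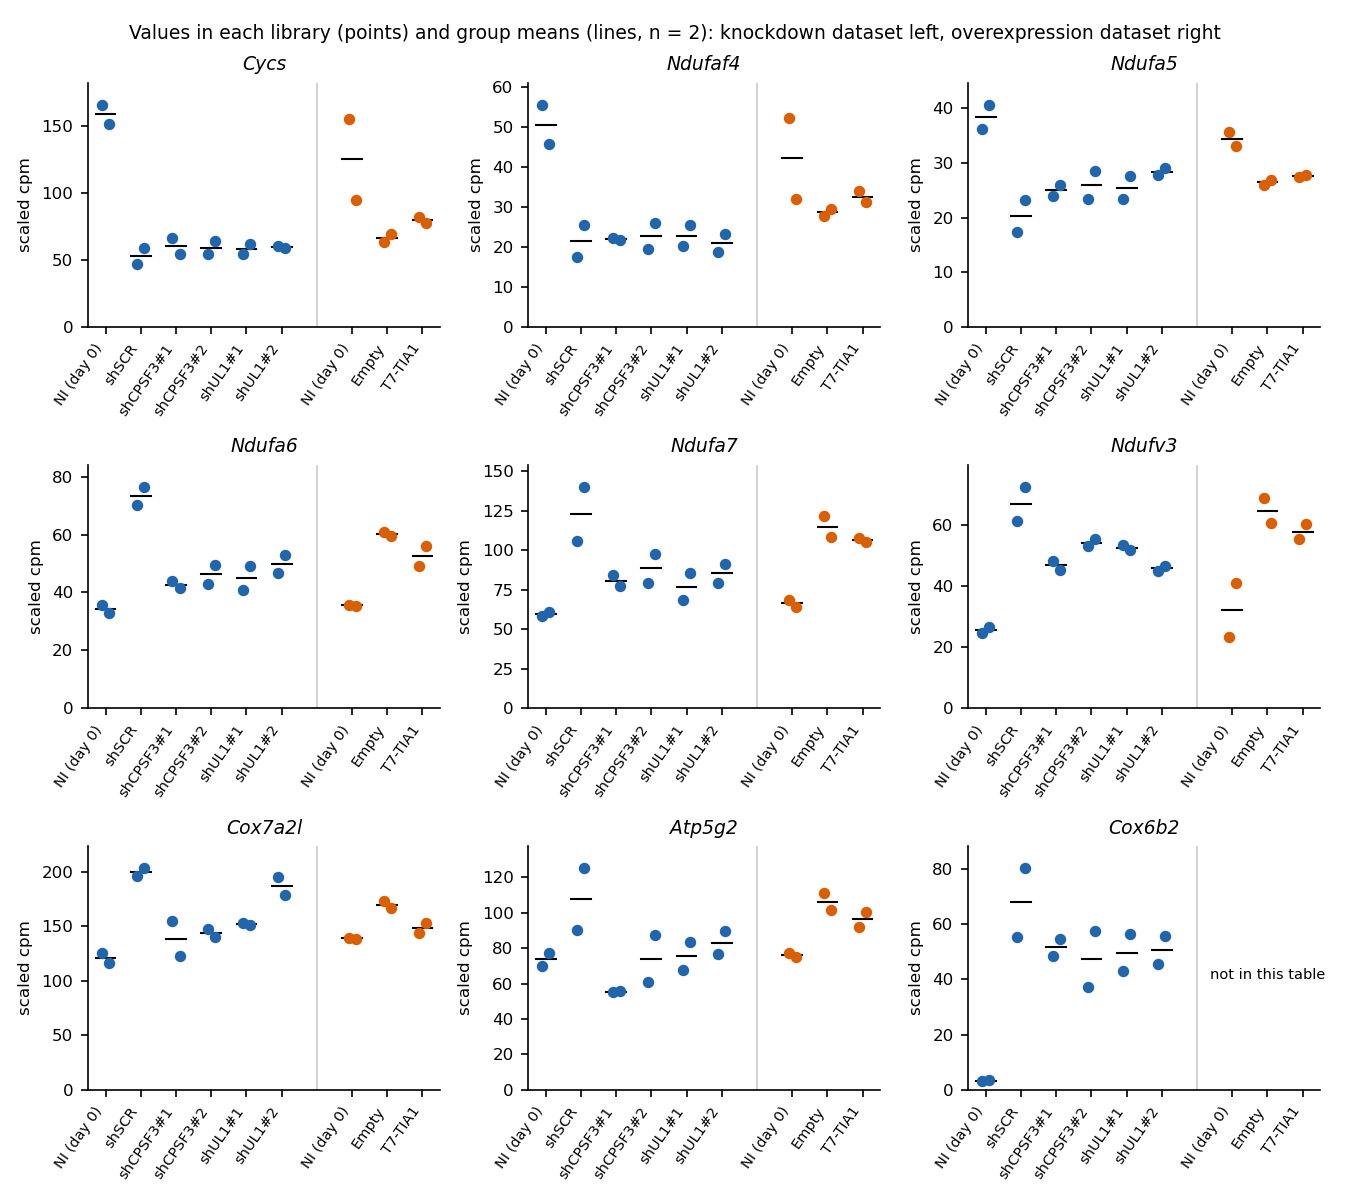
Scaled cpm (y axis, separate scale per panel) of 9 respiratory chain and ATP synthase genes in each library (points) of the 9 groups (x axis). *Ndufa6*, *Ndufa7* and *Ndufv3* are highest in shSCR within the knockdown dataset, *Cycs*, *Ndufaf4* and *Ndufa5* are highest in NI, and *Cox6b2* has no points in the overexpression dataset because that table does not list it.

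Complex II, the succinate dehydrogenase shared with the tricarboxylic acid cycle, had 2 called members of 4, both lower in shSCR than in NI, where 44.5% of all genes were called and 22.0% were lower. With equal sums 0 of the 4 were called, where 42.3% of all genes were. *Sdhb*, the iron-sulfur subunit, was at 114 and 105 in NI and 70.9 and 89.7 in shSCR scaled cpm, -0.45, adjusted p = 0.0251, and the membrane anchor *Sdhd* was at 133 and 135 in NI and 101 and 117 in shSCR, -0.30, adjusted p = 0.0496. In both, the NI libraries lay above the shSCR libraries, and neither gene was called in Empty, at -0.28, adjusted p = 0.0599 and 0.07, adjusted p = 0.711 respectively; both were named after their values were seen. In complex III, which passes electrons from ubiquinol to cytochrome c, *Uqcrq* fell from 75.5 and 65.2 in NI to 41.2 and 46.9 in shSCR, -0.66, adjusted p = 0.00478. *Uqcrc2*, a core protein, was at 159 and 158 in NI and 149 and 177 in shSCR and at 112 to 139 with the CPSF3 shRNAs, -0.42, adjusted p = 0.0299, with all 4 of those libraries below both shSCR libraries. *Uqcr10* and *Uqcr11*, 2 small subunits, rose in Empty against NI by 0.47 and 0.38. These 4 complex III genes were also named after their values were seen.

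Complex IV, cytochrome c oxidase, had the highest median of the complexes in both day 12 controls, 0.18 in shSCR and 0.23 in Empty. The median in shSCR includes *Cox6b2*, whose increase its listing required, and was not taken without it. In shSCR 3 of 13 genes were higher and none lower, *Cox6b2* among them, against 22.5% of all genes higher, and in Empty 3 of 12 were higher and none lower, against 22.8% of all genes higher. The median deviation of its genes from their own mean was 0.0019 and 0.021 in NI, -0.016 in shSCR library 1 and 0.28 in shSCR library 2, so that of the shSCR pair library 2 alone was above NI. It was -0.08 and -0.25 in NI of the overexpression dataset and 0.12 and 0.037 in Empty. Without *Cox6b2* the split in shSCR was 2 higher and 0 lower under all 3 scalings, and in Empty it was 3 and 0 with the deposited scaling, 3 and 0 with median-of-ratios and 8 and 0 with equal sums, where 33.2% of all genes were higher. *Cox6b2*, the testis isoform of a subunit that faces the intermembrane space, was at 2.99 and 3.34 in NI, 55.5 and 80.3 in shSCR, 48.4 and 54.8 in shCPSF3#1, 37.2 and 57.7 in shCPSF3#2, 42.9 and 56.5 in shUL1#1 and 45.7 and 55.8 in shUL1#2 scaled cpm. It passed the floor of the table, 5 scaled cpm in at least 9 of 12 libraries, through its day 12 libraries, while both NI libraries lay under that floor, so its difference from NI was required for it to be listed. The mean in shSCR was 21.5 times that in NI, which is given as a description without a test. With the CPSF3 and UL1 shRNAs the differences from shSCR were -0.44, adjusted p = 0.163, and -0.41, adjusted p = 0.258, with libraries on both sides of the lower shSCR value. With the replicate number as a block both were called (adjusted p = 0.0169 and 0.0354).

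Per length of exonic sequence, *Cox6b2* made up 1.22% and 1.38% of the summed level of *Cox6b1* and *Cox6b2* in the NI libraries, 21.5% and 26.1% in shSCR and 14.0% to 22.1% in the knockdown libraries. The somatic partner *Cox6b1* itself was at 155 and 153 in NI and 129.8 and 145 in shSCR scaled cpm and from 127 to 160.4 in all day 12 libraries, not called in any comparison. *Cox6b1* was the larger part in every library. The shares rest on exonic lengths of 708 bases for *Cox6b1* and 1108 for *Cox6b2*, not on measured transcript lengths.

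*Cox7a2l*, a relative of the COX7A subunits that joins complexes III and IV in supercomplexes, was at 125 and 116 in NI, 196 and 203 in shSCR, 155 and 123 in shCPSF3#1, 148 and 140.4 in shCPSF3#2, 153 and 151 in shUL1#1 and 196 and 179 in shUL1#2 scaled cpm. Both shSCR libraries were above NI, and the CPSF3 libraries were below shSCR, while shUL1#2 reached the shSCR level. Its differences were 0.72, adjusted p = 0.00275 for shSCR against NI, -0.50, adjusted p = 0.0155 for CPSF3 against shSCR, and -0.24, adjusted p = 0.193 for UL1 against shSCR. The overexpression libraries had it at 139 and 138 in NI, 173 and 167 in Empty and 143 and 153 in T7-TIA1, 0.29, adjusted p = 0.0525 for Empty against NI. *Cox7a2*, the liver-type subunit it resembles, was at 100.1 and 109 in NI and 93.9 and 124 in shSCR and was called in no comparison.

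*Cox8a*, the ubiquitous form of a small membrane subunit, was at 90.6 and 92.7 in NI and 121 and 137 in shSCR scaled cpm and at 104 and 105 in NI, 143 and 149 in Empty and 139 and 141 in T7-TIA1 in the overexpression dataset. The day 12 controls lay above NI in both, by 0.49, adjusted p = 0.0437, and 0.48, adjusted p = 0.00990. *Cox4i1*, a regulatory subunit, was at 201 and 194 in NI and 211 and 238 in shSCR and at 222 and 191 in NI, 247 and 244 in Empty and 271 and 257 in T7-TIA1; it overlaps other genes on both strands. *Cox6a1*, the somatic form of its subunit, was at 105 and 104 in NI and 100.4 and 118 in shSCR and *Ndufa4*, once assigned to complex I and now to complex IV, at 127 and 132 in NI and 94.04 and 123 in shSCR. None of these 3 was called in any comparison. *Cox7c* and *Cox6c*, named after their values were seen, rose in Empty against NI by 0.62 and 0.58, where *Cox7c* was at 131 and 99.1 in NI, 185 and 167 in Empty and 174 and 185 in T7-TIA1 and *Cox6c* at 119.7 and 125 in NI, 186 and 181 in Empty and 184 and 192 in T7-TIA1. In shSCR against NI the same genes were at 0.45, adjusted p = 0.0922, and 0.47, adjusted p = 0.126.

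The 5 complex IV assembly factors did not move one way. With equal sums 1 was called higher and 0 lower in shSCR against NI, where 25.9% of all genes were higher and 16.3% lower. The decreases of *Cox10* and *Cox19* from NI that follow were thus not called with that scaling. *Cox10*, which makes the heme A precursor, fell from 27.4 and 26.4 in NI to 13.01 and 17.9 in shSCR, -0.78, adjusted p = 0.0121, and *Cox14*, needed for COX1 synthesis, rose by 0.50; both were named after their values were seen. *Cox19*, a copper-handling factor, was at 21.8 and 21.5 in NI, 17.1 and 15.3 in shSCR, 22.1 and 25.5 in shCPSF3#1, 18.6 and 18.7 in shCPSF3#2, 18.7 and 17.8 in shUL1#1 and 16.3 and 17.04 in shUL1#2 scaled cpm. shSCR lay below NI and below the 4 CPSF3 libraries, of which shCPSF3#1 lay highest. Its differences were -0.40, adjusted p = 0.0199 for shSCR against NI and 0.36 ± 0.10 (SE), adjusted p = 0.0287 for CPSF3 against shSCR. The CPSF3 call was lost with equal sums (adjusted p = 0.135), with median-of-ratios scaling (adjusted p = 0.0504), and without shSCR library 2, shCPSF3#1 library 2 or shCPSF3#2 library 1. *Cox18*, which inserts COX2 into the inner membrane, was at 20.2 and 17.7 in NI, 14.5 and 12.6 in Empty and 16.8 and 15.8 in T7-TIA1 in the overexpression dataset, -0.46 ± 0.13 (SE), adjusted p = 0.0350 for Empty against NI. That call was lost with equal sums (adjusted p = 0.114) and without NI library 1, Empty library 1 or Empty library 2.

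In ATP synthase, 1 gene rose and 3 fell in shSCR against NI, 23.5% of 17 genes against 44.5% of all genes. With equal sums 1 rose and 1 fell, where 25.9% of all genes were higher and 16.3% lower. *Atp5e*, the epsilon subunit, rose by 0.40, and *Atp5g3*, *Atp5md* and *Atp5k*, a c subunit gene and 2 small membrane subunits, fell. In Empty against NI, *Atp5g2* and the catalytic-head subunit *Atp5a1* rose by 0.48 and 0.41, and none fell, 11.8% of 17 genes against 46.5% of all genes. *Atp5e* and *Atp5a1* were named after their values were seen. *Atp5g2* was at 69.99 and 77.1 in NI, 90.3 and 125 in shSCR, 55.2 and 55.5 in shCPSF3#1, 60.8 and 87.2 in shCPSF3#2, 67.7 and 83.3 in shUL1#1 and 76.4 and 89.8 in shUL1#2 scaled cpm, so that shSCR lay above NI and above all 8 knockdown libraries, with the highest of those (shUL1#2 library 2) close to the lower shSCR library. Its difference from shSCR was -0.74 ± 0.19 (SE), adjusted p = 0.0251 with the CPSF3 shRNAs, and -0.43 ± 0.19 (SE), adjusted p = 0.178 with the UL1 shRNAs (adjusted p = 0.0301 when blocked by replicate number). The CPSF3 call was lost without shSCR library 2 (adjusted p = 0.203) and without shCPSF3#1 library 1, shCPSF3#1 library 2 or shCPSF3#2 library 1 (adjusted p of 0.0546 to 0.0558). *Atp5g3* was at 261 and 254 in NI and 151 and 187 in shSCR, -0.61, adjusted p = 0.0138, and *Atp5g1* at 84.5 and 89.3 in NI and 52.8 and 79.4 in shSCR, -0.42, adjusted p = 0.205.

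Per length of exonic sequence, *Atp5g2* made up 23.4% and 25.5% of the 3 c subunit genes in NI, 40.3% and 42.3% in shSCR, 27.2% to 32.2% with the CPSF3 shRNAs and 31.4% to 34.8% with the UL1 shRNAs. Its share in the overexpression dataset was 25.2% and 29.5% in NI, 35.9% and 33.7% in Empty and 29.7% and 32.5% in T7-TIA1. The share was thus higher in both day 12 controls than in NI without overlap, and lower with every one of the shRNAs, and with T7-TIA1, than in the matching control. No test was run on these shares, which are a description. They rest on exonic lengths of 4912 bases for *Atp5g1*, 1675 for *Atp5g2* and 2181 for *Atp5g3*, not on measured transcript lengths.

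Taken one shRNA at a time against shSCR, the 89 genes gave 4 higher and 9 lower calls with shCPSF3#1 (background 35.2% of all genes, 20.8% higher and 14.4% lower), 0 higher and 1 lower with shCPSF3#2 (background 5.31%, 4.19% higher and 1.12% lower), 0 higher and 1 lower with shUL1#1 (background 4.93%, 3.84% higher and 1.09% lower) and 0 higher and 2 lower with shUL1#2 (background 6.23%, 4.4% higher and 1.83% lower). *Ndufa6* differed from shSCR by -0.77, -0.66, -0.70 and -0.55 with these shRNAs in that order, the first 3 of which were called and the last was not (adjusted p = 0.0518). *Atp5d*, the delta subunit of the ATP synthase head, was at 136 and 135 in NI, 117 and 117 in shSCR, 101 and 109.6 in shCPSF3#1, 93.2 and 118 in shCPSF3#2, 103 and 104 in shUL1#1 and 54.8 and 74.7 in shUL1#2 scaled cpm. The 2 shUL1#2 libraries lay below all others, -0.86, adjusted p = 0.0255 against shSCR, while shUL1#1 was at -0.18, adjusted p = 0.546. Directly compared, shUL1#2 was lower than shUL1#1 by 0.69 on the log2 scale without passing the threshold (adjusted p = 0.530), so the difference between the shRNAs was not called; the gene overlaps *Cbarp* on the opposite strand. Between the 2 CPSF3 shRNAs and between the 2 UL1 shRNAs limma called 0 of the 89 genes, where it called 0.0212% and 0.0% of all genes. At an unadjusted p under 0.05 there were 2 of the 89 in each comparison, 2.25% against 11.6% and 5.06% of all genes.

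Splicing was a readout that the choice of genes did not use. It is given as percent spliced in (PSI), the share of a gene's transcripts in which an exon is included, an intron is kept or a given splice site is used. In the knockdown dataset 1298 events of 87 of the genes were scored in every library, that is, had a vast-tools coverage score of VLOW or better, for which the methods name 10 reads. Of these, 48 events of 26 genes were called in shSCR against NI (34 with higher and 14 with lower PSI), 3.70% against 3.05% of all events tested. They comprised 20 introns, 18 of them with higher retention, 16 exons and 12 alternative splice sites, and 36 of the 48 differed by less than 5 PSI points. The same split over all called events was not taken, so it is not read as a trait of these genes. The CPSF3 shRNAs changed 14 events of 7 genes against shSCR (5 higher and 9 lower), 1.08% against 1.12% of all events, and the UL1 shRNAs 6 events of 5 genes (4 higher and 2 lower), 0.462% against 0.401%. Blocked by replicate number, the CPSF3 count was 19 (7 higher and 12 lower), 1.46% against 1.54% of all events, the UL1 count was 11 (6 higher and 5 lower), 0.847% against 0.618%, and 1 event was called in Empty against NI, 0.0828% against 0.484%. Between the knockdowns 0 events were called by limma (90 at an unadjusted p under 0.05, background 0.0%). For the overexpression dataset, with 1208 events tested, limma called 0 in Empty against NI (153 at an unadjusted p under 0.05, background 0.0913%) and 0 in T7-TIA1 against Empty (89 at an unadjusted p under 0.05, background 0.00905%). Leaving out 1 library at a time left fewer calls for shSCR, CPSF3 and UL1, among these events and among all events. For CPSF3 the fewest of these events remained without shSCR library 1.

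Exons of *Ndufa7* and *Ndufs4* were called in all 3 comparisons with shSCR of the knockdown dataset, and their sequences are shown because each is skipped in part of the transcripts and neither length is a multiple of 3. Both are read from the GRCm38 genome on the strand of the gene, 5′ to 3′. The *Ndufa7* exon is at chr17:33825601-33825650 on the plus strand, 50 bases, and is wholly coding in 1 of the 3 GENCODE M21 transcripts that contain it. The *Ndufs4* exon is at chr13:114351448-114351526 on the minus strand, 79 bases, and is wholly coding in 2 of the 3 transcripts that contain it.
Ndufa7 exon: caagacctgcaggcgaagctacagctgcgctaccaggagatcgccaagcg
Ndufs4 exon: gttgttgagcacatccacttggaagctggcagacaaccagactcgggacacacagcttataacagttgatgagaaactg

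Inclusion of the *Ndufa7* exon rose in shSCR against NI and was lower with the CPSF3 and UL1 shRNAs. Its PSI was 90.3 and 90.97 in NI, 96.7 and 97.2 in shSCR, 91.8 and 88.9 in shCPSF3#1, 92.04 and 93.5 in shCPSF3#2, 94.6 and 94.4 in shUL1#1 and 93.5 and 94.5 in shUL1#2, from 2612 to 6607 reads a library. Both shSCR libraries lay above all others, and the shCPSF3 libraries reached down to the NI level. The mean changed by ∆PSI of 6.30, adjusted p = 0.00233, in shSCR against NI, by ∆PSI of -5.41, adjusted p = 0.00446, in CPSF3 against shSCR, and by ∆PSI of -2.70, adjusted p = 0.0420, in UL1 against shSCR. The first 2 calls held whichever library was left out, and the UL1 call was lost without any one of them (adjusted p of 0.0813 to 0.159); tested on PSI in percent instead of reads, the CPSF3 call (adjusted p = 0.0579) and the UL1 call (adjusted p = 0.359) were lost. The PSI in the overexpression libraries was 92.4 and 90.01 in NI, 95.7 and 94.4 in Empty and 95.9 and 95.4 in T7-TIA1, with both Empty libraries above both NI libraries. The gene's level, described above, was also highest in shSCR.

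The exon of *Ndufs4*, an accessory subunit needed for a stable complex I, moved the other way. Its PSI was 95.1 and 95.4 in NI, 87.4 and 88.3 in shSCR, 90.8 and 91.2 in shCPSF3#1, 91.9 and 92.7 in shCPSF3#2, 92.3 and 91.8 in shUL1#1 and 92.3 and 92.2 in shUL1#2, from 2396 to 3485 reads a library. shSCR was lowest, all knockdown libraries lay between shSCR and NI, and no group overlapped shSCR. The mean changed by ∆PSI of -7.44, adjusted p = 0.000464, in shSCR against NI, by ∆PSI of 3.83, adjusted p = 0.0180, in CPSF3 against shSCR, and by ∆PSI of 4.32, adjusted p = 0.0163, in UL1 against shSCR. The first call held whichever library was left out; the CPSF3 call was lost without shSCR library 1, shSCR library 2, shCPSF3#1 library 1 or shCPSF3#1 library 2, and the UL1 call held only without shSCR library 2. Overexpression libraries had a PSI of 94.6 and 94.03 in NI, 91.1 and 92.1 in Empty and 93.1 and 93.8 in T7-TIA1, again lowest in Empty.

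A 204-base exon of *Cox19* at chr5:139339182-139339385, found in 1 non-coding transcript of the annotation, was nearly absent at day 0. Its PSI was 0.120 and 0.560 in NI, 11.6 and 12.01 in shSCR, 2.22 and 3.87 in shCPSF3#1, 3.86 and 4.03 in shCPSF3#2, 4.84 and 4.70 in shUL1#1 and 2.63 and 4.40 in shUL1#2, from 310 to 563 reads a library. Only the shSCR libraries passed 10, and the knockdown libraries lay between NI and shSCR without overlap. The mean changed by ∆PSI of 11.5, adjusted p = 0.00222, in shSCR against NI, by ∆PSI of -8.30, adjusted p = 0.00773, in CPSF3 against shSCR, and by ∆PSI of -7.65, adjusted p = 0.0199, in UL1 against shSCR. The first call held whichever library was left out, the CPSF3 call was lost without shSCR library 1 (adjusted p = 0.0548), and the UL1 call held only without shUL1#2 library 2. Neighbouring *Cox19* exons of 112 and 103 bases, from 0.81 to 8.395 and from 0.29 to 3.29 in the group means, and a 4187-base intron were also called in shSCR against NI, and share junctions with this one. The 204-base exon of the overexpression libraries was at 0.770 and 1.30 in NI, 7.08 and 4.53 in Empty and 1.31 and 2.29 in T7-TIA1, not called. As given above, the level of *Cox19* was lower in shSCR than in NI.

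A 214-base coding exon of *Ndufaf7*, the complex I assembly methyltransferase, at chr17:78942069-78942282, had a PSI of 95.6 and 96.4 in NI, 89.6 and 90.3 in shSCR, 98.03 and 99.1 in shCPSF3#1, 96.8 and 94.4 in shCPSF3#2, 97.5 and 98.1 in shUL1#1 and 96.8 and 94.8 in shUL1#2, from 302 to 513 reads a library. shSCR was lowest and overlapped no other group of the knockdown dataset. The mean changed by ∆PSI of -6.03, adjusted p = 0.0410, in shSCR against NI, by ∆PSI of 7.13, adjusted p = 0.0156, in CPSF3 against shSCR, and by ∆PSI of 6.84, adjusted p = 0.0302, in UL1 against shSCR. The first and the last call were lost without any one library, and the CPSF3 call without shSCR library 1, shSCR library 2 or shCPSF3#1 library 2. The gene itself was called in no comparison without the block, as given above.

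**Figure D5:**
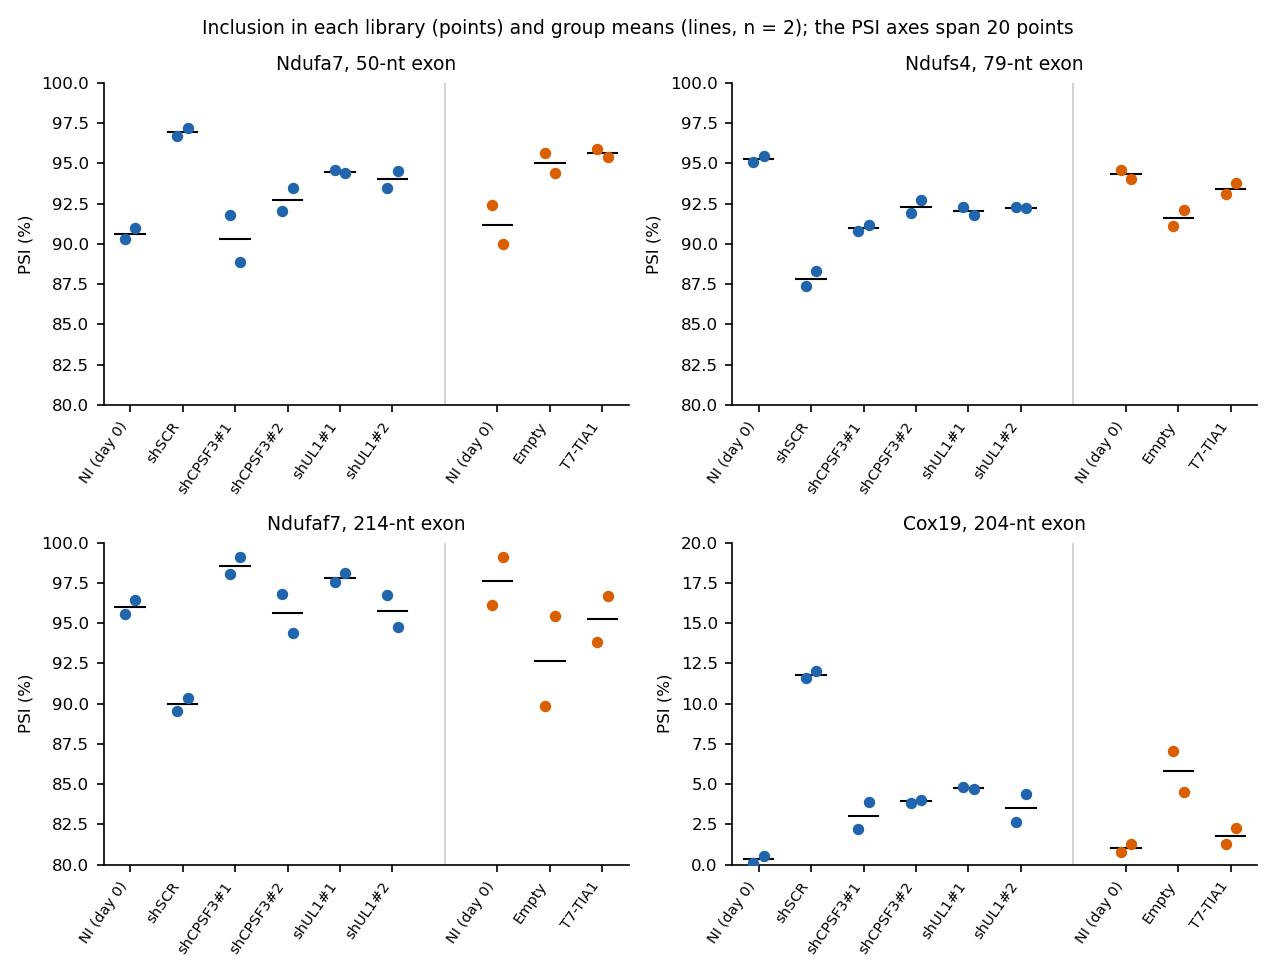
PSI (y axis, percent) of 4 cassette exons of respiratory chain genes in each library (points) of the 9 groups (x axis). In the knockdown dataset shSCR is highest for the *Ndufa7* and *Cox19* exons and lowest for the *Ndufs4* and *Ndufaf7* exons.

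Of the introns named in genes of other complexes, a pair was more retained in shSCR than in NI. In *Cox6b2* a 562-base intron went from 11.7 and 13.0 in NI to 29.4 and 29.8 in shSCR (adjusted p = 0.00542), and was at 17.6 to 25.4 with the CPSF3 shRNAs (adjusted p = 0.0285); the first call was lost without NI library 1 or NI library 2, and the second held only without shCPSF3#2 library 2. In the overexpression dataset the same intron was at 27.4 and 31.3 in NI, 26.5 and 24.1 in Empty and 28.8 and 30.3 in T7-TIA1, where Empty lay below NI and the difference was not called. An 85-base intron of *Cox6b2* was at 7.69 and 15.5 in NI, 16.5 and 16.6 in shSCR, 6.81 to 11.2 with the CPSF3 shRNAs and 8.32 to 11.9 with the UL1 shRNAs, all 8 below shSCR, and had lower retention with the CPSF3 shRNAs than in shSCR, ∆PSI of -8.23, adjusted p = 0.0421; among fits without 1 library that call held only without shCPSF3#2 library 2, and on PSI in percent it was lost (adjusted p = 0.248). *Cox6b2* was under the floor of the table in NI, as given above. In *Atp5j*, coupling factor 6 of ATP synthase, a 437-base intron went from 14.5 and 18.3 to 26.8 and 35.8 (adjusted p = 0.0454), a call lost without any one library and with the replicate number as a block (adjusted p = 0.0507). It was at 14.9 and 18.3 in NI, 22.7 and 15.9 in Empty and 32.4 and 23.4 in T7-TIA1 in the overexpression dataset, where Empty and NI overlapped. The cassette exons listed for *Ndufv3* and *Atp5c1* did not pass the test: the 788-base *Ndufv3* exon was at 9.9 to 15.3 in all 18 libraries, and the 156-base *Atp5c1* exon was at about 100.

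Larger differences in PSI were measured in further events. By the study's thresholds (a difference of at least 10 PSI points with group ranges at least 5 apart), 14 events of these genes differed in shSCR against NI, 4 with CPSF3, 2 with UL1, 6 in Empty against NI and 2 in T7-TIA1 against Empty, of which 3, 0, 0, 0 and 0 were also called by limma. These were 0.825%, 0.236%, 0.118%, 0.353% and 0.117% of their events scored in the libraries compared, against 1.22%, 0.428%, 0.368%, 0.679% and 0.342% of all events, lower in each. Between the knockdowns 0 of them and 0.0067% of all events met these thresholds. A 4-base shift of a *Cox18* 3′ splice site, with 89 to 175 reads, was among them: the first of its 2 forms was at 60.00 and 48.03 in NI, 72.4 and 67.4 in shSCR, 53.1 and 50.4 in shCPSF3#1, 55.6 and 61.3 in shCPSF3#2, 40.9 and 53.9 in shUL1#1 and 52.5 and 60.2 in shUL1#2, with both shSCR libraries above all others. It differed by 15.9 in shSCR against NI, -14.8 in CPSF3 and -18.03 in UL1 against shSCR, and 14.6 in Empty against NI (adjusted p = 0.0975, 0.123, 0.115 and 0.237). Splice sites of *Cox7a2l* (38.0 in shSCR against NI, 15 to 48 reads), *Ndufa12* (25.2, 23 to 57 reads), *Atp5g2* (-32.3 in Empty against NI, 15 to 55 reads), *Cox7c* (-14.3, 99 to 187 reads) and *Ndufs5* (-13.9 in T7-TIA1 against Empty, 26 to 64 reads) were likewise not called, and those of *Atp5o* and *Ndufs4* lacked that coverage score in some libraries and were not tested.

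Promoters were searched for motifs of factors known to act on nuclear genes of the respiratory chain, in 300 bases from 250 before to 50 after the start of each gene (RefSeq, GRCm38.p6, 74 of 89 genes matched). The letters GCGCATGCG, the core bound by NRF1, were found on either strand in 11 of 74 promoters (*Atp5g2*, *Atp5k*, *Atp5l*, *Cox6a1*, *Cycs*, *Ndufa8*, *Ndufa11*, *Ndufaf4*, *Ndufaf5*, *Uqcr11* and *Uqcrc1*), 14.9% against 1.95% of the promoters of all 27025 genes. The YY1 letters AAGATGGCG were in 8 (*Atp5j*, *Atp5j2*, *Cox10*, *Ndufa9*, *Ndufc1*, *Ndufs4*, *Ndufs6* and *Ndufs7*), 10.8% against 1.64%, the ETS letters ACCGGAAGT in 1, 1.35% against 1.21%, and the hypoxia-response letters ACGTG in 15, 20.3% against 21.8%; none of these motifs contains another. The matches describe the letters in these windows only. The promoters of *Cycs* and *Ndufaf4*, which fell in shSCR against NI, and of *Atp5g2*, lower with the CPSF3 shRNAs, are shown because they share the NRF1 letters while their levels moved differently. Each is the 250 bases before the start, on the strand of the gene, with the NRF1 and hypoxia-response letters in capitals, at chr6:50566570-50566819 (minus strand), chr4:24897833-24898082 (plus strand) and chr15:102671048-102671297 (minus strand).
Cycs upstream: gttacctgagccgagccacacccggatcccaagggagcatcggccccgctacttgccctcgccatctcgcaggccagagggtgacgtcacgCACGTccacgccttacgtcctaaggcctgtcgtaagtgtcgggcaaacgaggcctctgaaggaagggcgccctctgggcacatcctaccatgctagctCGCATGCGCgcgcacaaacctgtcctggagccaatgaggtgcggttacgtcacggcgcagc
Ndufaf4 upstream: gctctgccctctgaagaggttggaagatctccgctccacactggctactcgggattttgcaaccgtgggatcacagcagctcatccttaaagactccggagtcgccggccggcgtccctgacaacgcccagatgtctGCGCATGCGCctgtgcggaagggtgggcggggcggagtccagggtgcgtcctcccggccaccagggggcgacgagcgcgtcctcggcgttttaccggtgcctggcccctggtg
Atp5g2 upstream: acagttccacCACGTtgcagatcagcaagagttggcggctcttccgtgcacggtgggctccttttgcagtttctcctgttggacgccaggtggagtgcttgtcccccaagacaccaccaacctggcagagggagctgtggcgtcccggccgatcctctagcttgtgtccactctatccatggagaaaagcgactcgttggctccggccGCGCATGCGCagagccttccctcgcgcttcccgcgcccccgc

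Genes around the chain were taken from lists of mitochondrial functions, whose counts stand against the 44.5% of all genes called in shSCR against NI, 26.1% with CPSF3, 10.5% with UL1 and 46.5% in Empty against NI. Of 41 further assembly factors, 29 were tested in the knockdown dataset; 6 were higher and 6 lower in shSCR against NI (5 and 6 of 28 without *Chchd10*), 5 were higher and 1 lower with CPSF3, and 1 was higher and 0 lower with UL1 (41.4%, 20.7% and 3.45%). *Chchd10*, a protein of the intermembrane space, had a mean of 1.94 scaled cpm in NI, under the floor of 5, and 114 in shSCR, a difference that its listing required and that is not read as a test; it was lower with CPSF3 (-2.35, adjusted p = 0.0459). *Tmem126a*, which takes part in complex I assembly, fell in shSCR (-1.23, adjusted p = 0.000124) and in Empty (-1.04, adjusted p = 0.00165). In Empty against NI 9 of 31 rose, with *Nubpl*, an iron-sulfur factor for complex I, at 1.14, adjusted p = 0.00416, and 7 fell, together 51.6%. *Tmem126b* and *Coa5* were higher with CPSF3 and UL1 respectively (0.52, adjusted p = 0.0324, and 0.49, adjusted p = 0.0416).

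Of 8 carriers and channels, 1 rose and 3 fell in shSCR against NI, 1 was higher and 2 lower with CPSF3, 1 was higher and 0 lower with UL1, and 3 rose and 2 fell in Empty against NI (50.0%, 37.5%, 12.5% and 62.5% of only 8 genes). The ATP/ADP carrier *Slc25a4* fell in shSCR (-1.35, adjusted p = 0.000568) and in Empty (-0.87, adjusted p = 0.00448), and was higher with CPSF3 (0.66, adjusted p = 0.0163) and UL1 (0.63, adjusted p = 0.0355) than in shSCR. The uncoupling protein family member *Ucp2* rose in shSCR (1.77, adjusted p = 0.00219) and in Empty (1.41, adjusted p = 0.0453) and was lower with CPSF3 (-0.99, adjusted p = 0.0276). Of 13 tricarboxylic acid cycle genes, 2 rose and 6 fell in shSCR (61.5%), and 2 rose and 4 fell in Empty (46.2%), led by *Dlst* of the 2-oxoglutarate dehydrogenase complex (-0.94, adjusted p = 0.000516, and -0.87, adjusted p = 0.00577). *Mdh2*, the mitochondrial malate dehydrogenase, was at -0.90, adjusted p = 0.00136 in shSCR, and citrate synthase *Cs* at -0.65, adjusted p = 0.00891 in Empty. With CPSF3, *Ogdh* was higher (0.68, adjusted p = 0.00563) and *Suclg2* lower (-0.74, adjusted p = 0.0185), and with UL1 none of the 13 was called.

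Of the regulators of mitochondrial biogenesis, 12 of 16 were tested in the knockdown dataset; 1 rose and 2 fell in shSCR, 2 were higher with CPSF3 and 1 with UL1 (3 of 12, 16.7% and 8.33%, each below the share of all genes). The nuclear receptor *Esrra* was higher with both (0.85, adjusted p = 0.00298, and 0.57, adjusted p = 0.0211), and the mitochondrial transcription factor *Tfb2m* was lower in shSCR than in NI (-0.52, adjusted p = 0.00515). In Empty against NI 3 of 13 rose, among them *Tfb1m* (0.92, adjusted p = 0.00264) and the helicase gene *Twnk* (0.89, adjusted p = 0.00261), and 1 fell, together 30.8%. T7-TIA1 against Empty and the direct comparison of the knockdowns gave 0 calls in all of these lists. Fibroblast marker sums were lower in both day 12 controls than in NI and higher with the CPSF3 and UL1 shRNAs than in shSCR. Of 11 markers tested, 1 was called higher and 3 lower in shSCR against NI, 36.4% against 44.5% of all genes. With CPSF3 7 were higher (63.6%) and with UL1 6 (54.5%), and 0 were lower. In Empty against NI 7 of 10 were lower (70.0%) and 0 higher. The part of these markers in the results was not tested. Genes encoded in mitochondrial DNA were not listed in either table and were not analysed here.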

How the data were processed

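RNA-seq libraries from 18 samples were analysed from the authors' processed tables. Per the labels and the methods, polyadenylated RNA was sequenced strand-specifically, reads were mapped to mm10 with STAR v2.7.1a and expression was computed with edgeR v3.16.5. The deposited expression values are a normalised signal, cpm after scaling between libraries, in tables that list genes at 5 or more in at least 9 of 12 libraries (knockdown) or in all 6 (overexpression); rows without a gene name (96 and 125) were kept in the fits. The values are whole multiples of 1 step per library, which gave the reads on listed genes. The deposited PSI values, in percent, come from vast-tools, made by the authors, with the inclusion and exclusion reads behind each value. The coefficient of variation filter of 0.2 named in the methods had not been applied to the tables, since 36.9% and 49.9% of the genes lie under it.

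Log2(scaled cpm + 1) was tested with limma v3.58.1 (R v4.3.3) with a mean-variance trend, fitting the groups of each dataset together, and Benjamini-Hochberg adjustment over all genes. Events with a vast-tools coverage score of at least VLOW (10 reads by the methods) in all libraries and at least 1 read of each form over them (284583 of 661941 events in the knockdown dataset, 254137 in the overexpression dataset) were tested on log2 of inclusion over exclusion reads, each with 1 read added, weighted by counting variance with a floor of 0.05 and with limma's moderated variances. Knockdown comparisons used the mean of both shRNAs. Promoters were searched with the first 9 letters of the longer planned NRF1 and YY1 motifs. Tests were checked on simulated data. For each comparison the 3 called genes with the largest change in each direction were named (or the extremes where none was called), with isoform partners, called or study-rule events (up to 6) and the 2 most changed genes of each pathway list; other genes named are said to be so. The members and lists were chosen with earlier results of these data known. Where the time label of a sample (shUL1#2 and NI of the overexpression dataset) disagreed with its title, the title was used. Tables were processed with Python v3.11.15 and pandas v2.3.3. Alternatives were other scalings, pseudocounts, filters, a replicate block, fits of the compared groups alone and leaving out each library. The labels do not say what a replicate number shares. Expression deviations of same-numbered libraries from their group means correlated at 0.67 to 0.95 in all 10 pairs of day 12 groups of the knockdown dataset, at 0.17 to 0.31 in the 3 pairs of the overexpression dataset and at -0.13 to 0.02 with NI of the knockdown dataset, so the fit with the number as a block is given beside results whose call it changed or whose count it moved by over 1.5 times, except against that NI.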

Additional observations from a re-analysis of the deposited data

Results flagged for a closer look

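*Cox6b2* is not listed in the overexpression expression table, but reads at its exons were deposited with the splicing values, so a signal could be measured outside the expression comparisons. At its 126-base exon there were 107 and 302 reads in NI, 3746 and 3530 in Empty and 3140 and 3075 in T7-TIA1. Relative to the reads behind all splicing events of a library, the mean in Empty was 19.9 times that in NI, and in the knockdown dataset shSCR was 20.7 times NI by the same measure. At the neighbouring 101-base exon the ratios were 21.4 and 19.6. In the overexpression dataset the NI pair differed, and without NI library 1 the ratio of Empty to NI was 13.4 at the 126-base exon and 14.3 at the 101-base exon, while without NI library 2 it was 38.8 and 42.7; leaving out a library in this way was chosen after the values were seen. In the knockdown dataset the ratios without 1 library were 17.2 to 24.2 and 15.5 to 23.7. T7-TIA1 was at 0.874 times Empty at the 126-base exon. The lower NI library of the overexpression dataset was at about the level of NI in the knockdown dataset (137 and 171 reads), and all day 12 libraries were above all NI libraries. These ratios carry no test.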

How the results depend on the processing

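Leaving out 1 library at a time gave 13 to 27 called genes in shSCR against NI, 0 to 10 in CPSF3 against shSCR, 0 to 2 in UL1 against shSCR and 1 to 34 in Empty against NI, and medians of -0.21 to 0.058, -0.19 to 0.045 and -0.24 to 0.040 in the first 3 and 0.011 to 0.14 in Empty against NI; called events numbered 10 to 16, 1 to 12 and 0 to 5. Leaving out a library also changed the number of calls among all genes. With equal sums the medians were 0.061 in shSCR and 0.25 in Empty, with 34 genes called in Empty, 38.6% against 49.6% of all genes. With median-of-ratios scaling 4 genes were called with UL1, 4.49% against 9.77% of all genes. Fits of the compared groups alone called 16 genes in shSCR, 0 with CPSF3, 0 with UL1 and 6 in Empty. Of all genes, these fits called 39.9%, 3.65%, 1.54% and 32.5%. Tested as PSI in percent, 12, 4 and 3 events were called in shSCR, CPSF3 and UL1.

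With the replicate number as a block, 40 genes were called in shSCR (44.9% against 59.4% of all genes), 26 with CPSF3, 10 with UL1 and 14 in Empty (15.9% against 46.4%), and 54, 19, 11 and 1 events respectively. Beyond the genes given beside the results, the block changed no gene call printed for CPSF3 or UL1 against shSCR or for the overexpression dataset. In the knockdown dataset at day 12 the median deviation of the 89 genes was -0.16 to -0.07 in the 5 libraries numbered 1 and -0.06 to 0.19 in those numbered 2.

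Over the named genes and events, 408 alternative values kept the direction and the side of the threshold, 113 kept the direction and lost the call, 90 of those without 1 library, and 0 changed direction. Pseudocounts of 0.5 and 5 changed no call of a named gene, and a minimum mean of 5 removed no gene. Count models (edgeR, DESeq2) were not run.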
